A study of Mus musculus with 14 samples.

Results

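Sox17 and Foxa2 encode transcription factors of the endoderm, and the chromatin around each gene was read here in R1 mouse embryonic stem cells (ESCs), in their differentiated progeny and in XEN cells. The regions were set by coordinates in the mm9 build, chr1:4460001-4530000 for Sox17 (70 kb) and chr2:147820001-147920000 for Foxa2 (100 kb). Together they hold 850 bins of 200 bp, of which 588 had at least 1 CpG count in some library (227 of 350 at Sox17 and 361 of 500 at Foxa2), out of 7282466 such bins in all files. No mm9 annotation was used, so exons, introns and transcription starts are not placed inside the regions, and a position is given by its coordinates alone.

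SOX17 is an HMG-box factor and FOXA2 is a forkhead factor that can bind its sites in closed chromatin, and both are turned on as cells enter the endoderm, including the extraembryonic endoderm that XEN cells stand for. Monomethylation of histone H3 at lysine 4 (H3K4me1) is a mark of enhancers in general, while acetylation at lysine 27 (H3K27ac) goes with regulatory elements in use. Methylated cytosine (5mC) is usually low at active promoters and intermediate at enhancers.

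The assay was ChIP-BS-seq, in which DNA pulled down with an antibody against a histone mark is bisulfite-treated, so that methylated and unmethylated CpGs are counted in DNA bound by that mark. ESCs were R1 cells, a male mouse line, after 2 days without 2i. The differentiated cells were R1 cells after 4 days without LIF in 1 µM retinoic acid (RA cells), and the XEN cells were R1 cells after 9 days in RPMI medium with 0.1 µM retinoic acid and Activin A at 10 ng/ml. ESCs and RA cells had 1 set of counts per mark, called a library, with no replicate to give a spread (whether it pools repeats is not stated), and XEN cells had 2 replicate libraries per mark.

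Libraries of ESCs and RA cells held 32305709 to 58803653 CpG counts, and XEN libraries held 12147115 to 31345707 and listed only bins with at least 4 counts. The XEN libraries stood against their labels. Over 388585 windows of 2 kb, counts of the XEN libraries labelled H3K4me1 followed those of H3K27ac in RA cells more closely (Spearman's rho of 0.704 and 0.722) than those of H3K4me1 (0.433 and 0.449). The XEN libraries labelled H3K27ac followed H3K4me1 of RA cells (0.800 and 0.822) more closely than H3K27ac (0.584 and 0.590). The windows share base composition and the coefficients are a description. The names of the deposited files also give the XEN marks the other way round. Labels are followed below, each XEN library is named by its label, and every direction that rests on a XEN mark is given under both assignments. The identity of the cells was not checked against marker transcripts here.

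Because CpGs are what was counted, the CpG content of a stretch sets how many counts it can give. RefSeq (GRCm38.p6) holds 3 promoters for Foxa2, and 1 of the 2 gene symbols was matched. The 250 bases before the most upstream Foxa2 start are shown with each CpG in capitals, to show what a count stands for.

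Foxa2 promoter, most upstream start: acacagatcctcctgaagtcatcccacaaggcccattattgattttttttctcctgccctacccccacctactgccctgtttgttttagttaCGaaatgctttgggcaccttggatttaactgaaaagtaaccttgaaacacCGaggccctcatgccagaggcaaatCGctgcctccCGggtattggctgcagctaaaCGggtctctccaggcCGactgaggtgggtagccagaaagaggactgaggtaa

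This stretch holds 6 CpGs (CG read on the printed strand, which is the same on the other), equal to the median of 6 over 32851 promoters, and 50.4% of promoters hold as many. The 250 bases before the next starts downstream hold 20 and 13 CpGs, numbers that 17.9% and 31.5% of promoters reach. These stretches were not placed on the mm9 bins. Changes in occupancy are therefore compared between libraries at the same place, and where windows of 1 library are ranked, the order follows CpG content as well as the mark. Values are given as CPM, the CpG counts scaled to the same total in every library.

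Both loci gained both marks after retinoic acid. The Sox17 locus held 35.6 CPM of H3K4me1 in ESCs and 128 CPM in RA cells, a ratio of 3.60 (95% exact interval 3.42 to 3.78, from 2094 and 6045 counts). For H3K27ac it held 24.7 CPM in ESCs and 164 CPM in RA cells, a ratio of 6.63 (6.15 to 7.14). At Foxa2, H3K4me1 went from 72.8 to 193 CPM, a ratio of 2.65 (2.55 to 2.75). H3K27ac at Foxa2 went from 33.8 to 304 CPM, a ratio of 8.98 (8.44 to 9.57), the widest of the 4. All intervals cover counting error only, since CpGs of 1 read and PCR copies are not independent molecules, and they compare 1 library with another. In a bulk population, more cells with a mark and more of the mark per cell cannot be told apart.

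The gain reached many windows of each region, which held 35 windows of 2 kb at Sox17 and 50 at Foxa2. Windows short of the minimum given next have no call. Among 2-kb windows with at least 30 counts summed over the libraries compared, H3K4me1 was at least 2-fold higher in RA cells in 25 of 29 windows at Sox17 and in 30 of 42 at Foxa2, against 28.8% of 529903 windows of the genome. It was at least 2-fold lower in 1 window at each locus, against 33.9% of the genome. H3K27ac was at least 2-fold higher in 21 of 22 windows at Sox17 and 24 of 31 at Foxa2, against 17.4% of 431821 windows. No window of either locus was 2-fold lower for H3K27ac, against 21.3% of the genome. The median ratio of the windows was 13.1 at Sox17 and 6.98 at Foxa2 for H3K4me1, with a median of 0.899 over the genome. For H3K27ac it was 5.62 and 10.1, with a median of 0.946. A window nearly empty in ESCs met the minimum only through its RA counts, so the filter itself put it past 2-fold. The same filter applied to the genome, and how much of these shares and medians rests on such windows was not tested.

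The authors' peaks, called by HOMER, widened in the same way. H3K4me1 peaks covered 15.0% of the Sox17 locus in ESCs (5 peaks) and 73.1% in RA cells (10 peaks). At Foxa2 they covered 23.9% (10 peaks) and 70.2% (13 peaks). H3K27ac peaks covered 5.73% of the Sox17 locus in ESCs (2 peaks) and 57.4% in RA cells (9 peaks), and 1.56% (1 peak) and 54.2% (9 peaks) of the Foxa2 locus. The Foxa2 locus of RA cells thus carried H3K27ac peaks over 54.173 kb where ESCs had 1.564 kb. Of the bins with counts, 35.2% of the genome's and 84.0% and 82.4% of those at Sox17 and Foxa2 lay in H3K4me1 peaks of RA cells. For H3K27ac these shares were 22.7%, 72.1% and 67.9%.

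Some of these peaks were among the highest scored of their lists. The H3K4me1 peak at chr2:147822411-147869674 of RA cells was 47.264 kb long and ranked 55 of 158989 by score and 62 by length. At Foxa2, the best H3K27ac peak of RA cells was chr2:147825715-147846649 (20.935 kb, rank 250 of 102600), followed by chr2:147859207-147875490 (16.284 kb, rank 287). At Sox17 the best peaks of RA cells were chr1:4459943-4473451 for H3K4me1 (rank 979) and chr1:4460107-4467302 for H3K27ac (rank 1497). In ESCs the best H3K4me1 peaks were chr1:4485463-4488409 (rank 34571 of 145840) and chr2:147869287-147875566 (rank 25839). The best H3K27ac peaks of ESCs were chr1:4481411-4484422 (rank 29933 of 100469) and the single Foxa2 peak, chr2:147870280-147871843 (rank 57093).

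**Figure D1:**
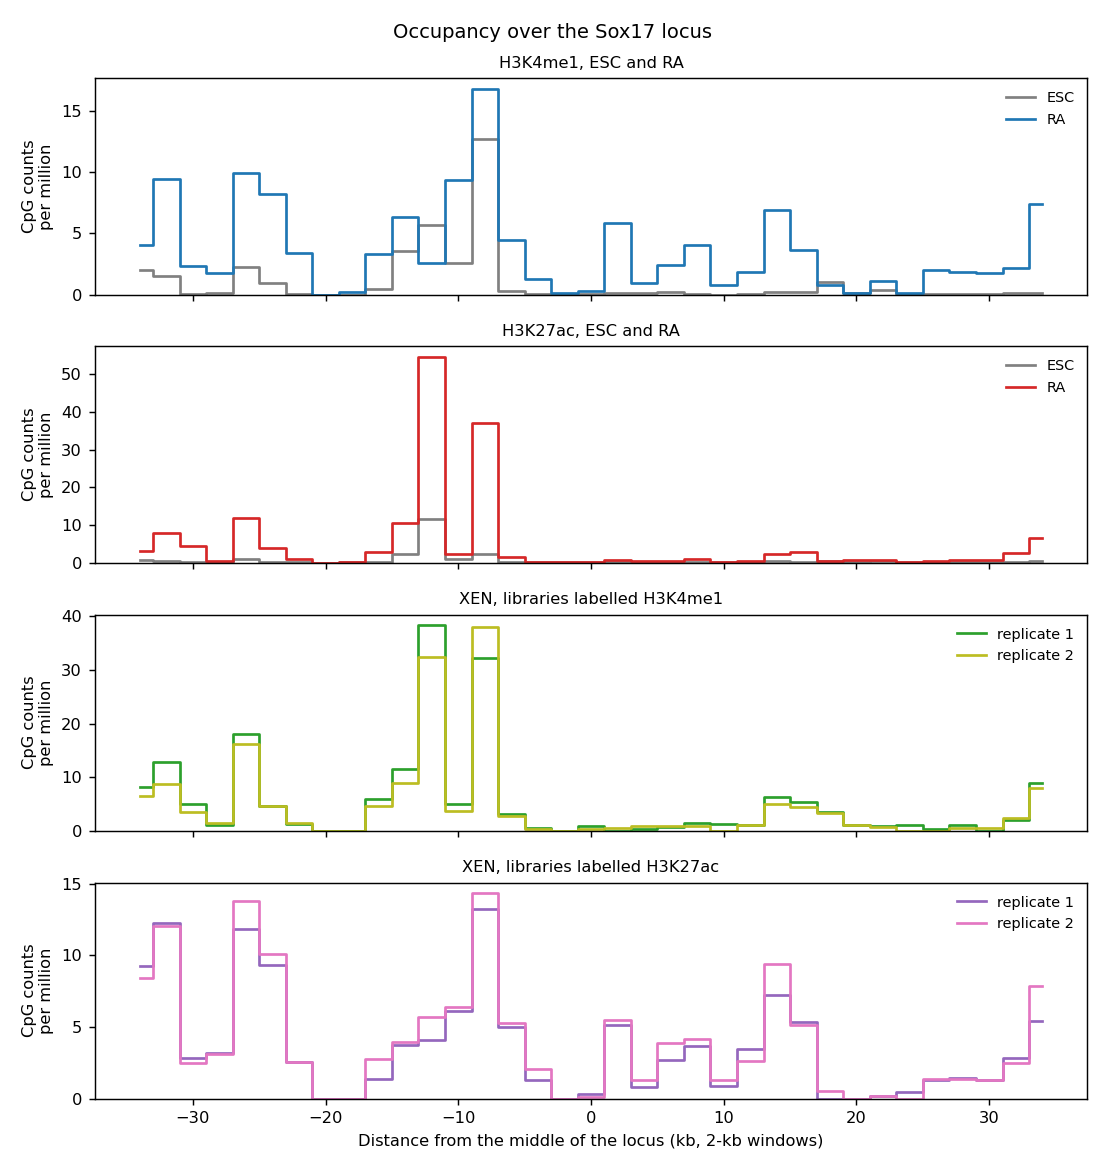
CPM, the CpG counts scaled to the same total in each library (y), in 2-kb windows over the Sox17 locus against the distance from its middle in kb (x), with ESCs in grey, RA cells in colour and the 2 XEN replicates of each label in panels of their own. H3K27ac of RA cells peaks at 54.6 CPM in the window where H3K4me1 fell to 2.63 CPM, and the XEN libraries labelled H3K4me1 peak in that window and the one 4 kb further right.

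In RA cells H3K27ac was concentrated in fewer windows than H3K4me1. There, the 3 fullest windows held 63.1% of the Sox17 locus's H3K27ac counts and 28.3% of its H3K4me1 counts. At Foxa2 they held 50.7% and 23.9%. In ESCs, with fewer counts, the marks lay closer together, with 65.7% for H3K27ac and 61.8% for H3K4me1 at Sox17 and 43.4% and 44.1% at Foxa2. In XEN cells the libraries labelled H3K4me1 held 48.3 and 52.9% at Sox17 and 41.4 and 40.7% at Foxa2 in their 3 fullest windows. Those labelled H3K27ac held 29.0 and 28.4%, and 29.5 and 28.8%, so the order was that of RA cells by file name and the opposite by label.

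At Sox17 the fullest H3K27ac window was chr1:4482001-4484000 in both cell states. It held 11.7 CPM in ESCs and 54.6 CPM in RA cells, a ratio of 4.67 (4.18 to 5.23). In the genome, 0.0391% of windows with counts held as many H3K27ac counts in RA cells. The next, chr1:4486001-4488000, rose from 2.33 to 37.0 CPM, and the next in RA cells, chr1:4468001-4470000, from 1.07 to 11.8 CPM. In ESCs the next was chr1:4480001-4482000, at 2.21 CPM. For H3K4me1, chr1:4486001-4488000 was the fullest in both cell states, at 12.7 CPM in ESCs and 16.8 CPM in RA cells. It was followed in RA cells by chr1:4468001-4470000 (9.92 CPM) and chr1:4462001-4464000 (9.45 CPM), and in ESCs by chr1:4482001-4484000 (5.71 CPM) and chr1:4480001-4482000 (3.55 CPM).

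At Foxa2 the fullest H3K27ac window was chr2:147870001-147872000. It held 7.33 CPM in ESCs and 69.7 CPM in RA cells, a ratio of 9.51 (8.32 to 10.9), and 97 of 1138992 windows with counts held as many in RA cells. The next were the same in both cell states. H3K27ac rose from 4.73 to 49.1 CPM in chr2:147864001-147866000 and from 2.61 to 35.0 CPM in chr2:147872001-147874000. H3K4me1 of ESCs was fullest in chr2:147864001-147866000 (14.4 CPM), chr2:147870001-147872000 (9.98 CPM) and chr2:147866001-147868000 (7.79 CPM). In RA cells its fullest windows were chr2:147856001-147858000 (17.4 CPM) and chr2:147848001-147850000 (15.4 CPM), followed by chr2:147864001-147866000 at 13.3 CPM.

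**Figure D2:**
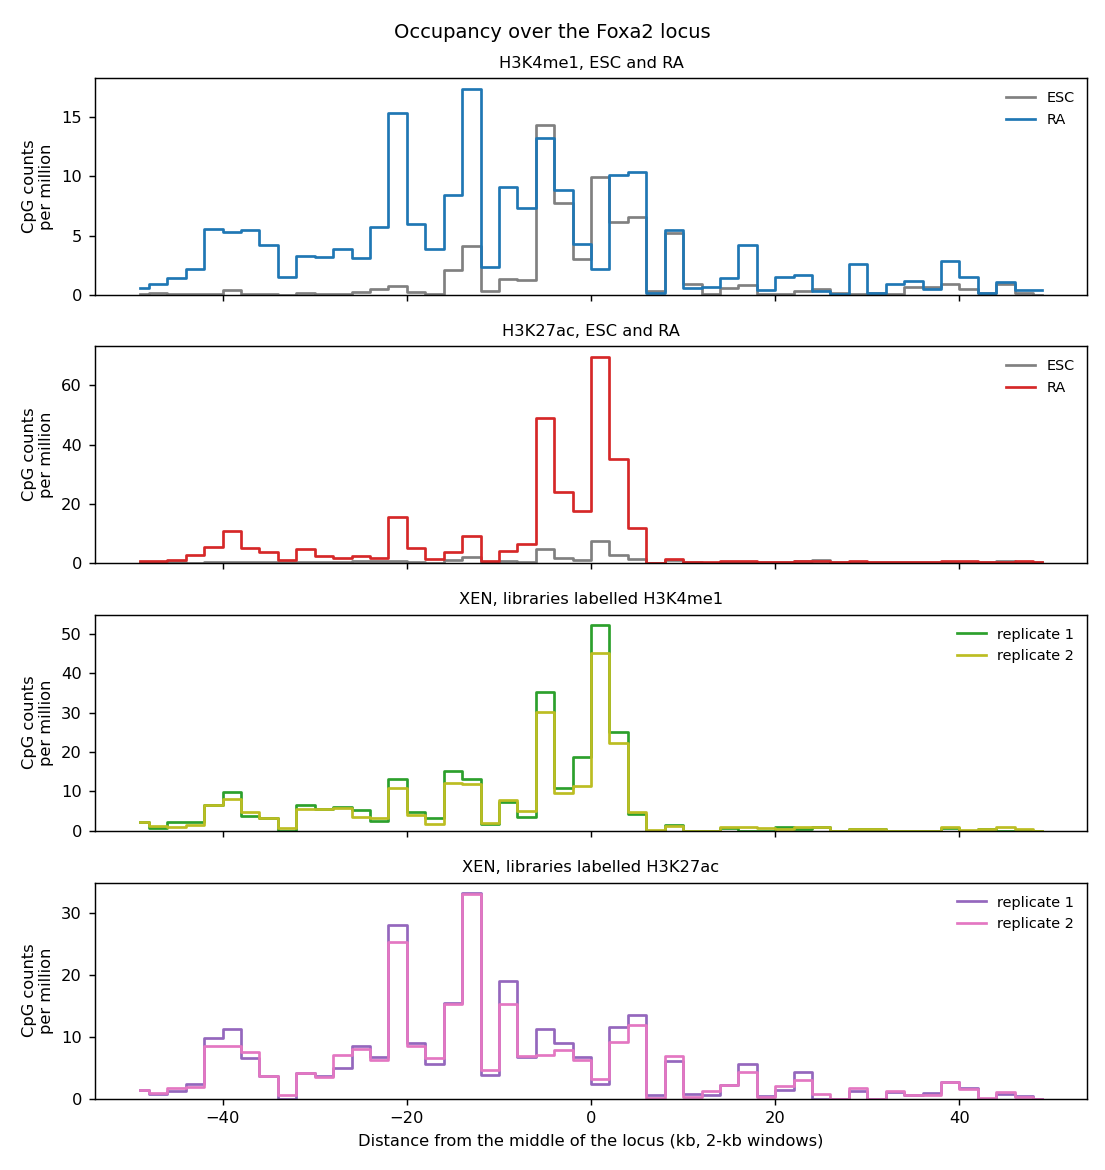
CPM, the CpG counts scaled to the same total in each library (y), in 2-kb windows over the Foxa2 locus against the distance from its middle in kb (x), with ESCs in grey, RA cells in colour and the 2 XEN replicates of each label in panels of their own. H3K4me1 of RA cells fell to 2.20 CPM just right of the middle, in the window where H3K27ac of RA cells reached 69.7 CPM.

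Among windows with an ESC count, those with the widest H3K4me1 ratios lay away from these centres and were nearly empty in ESCs. At Sox17 they were chr1:4472001-4474000 (2 counts in ESCs and 162 in RA cells, ratio 101, interval 27.5 to 841), chr1:4496001-4498000 (6 and 275 counts, 57.1, 25.9 to 157) and chr1:4524001-4526000 (2 and 83 counts, 51.7, 13.9 to 434). At Foxa2 they were chr2:147842001-147844000 (1 and 182 counts, 227, 40.2 to 9009), chr2:147840001-147842000 (1 and 149 counts, 186, 32.8 to 7384) and chr2:147828001-147830000 (2 and 260 counts, 162, 44.4 to 1345). In 1 further window of each locus ESCs had no H3K4me1 count. For H3K27ac this was so in 1 Foxa2 window, chr2:147852001-147854000, with 0 and 46 counts. Among windows with an ESC count, the widest H3K27ac ratios at Sox17 were 72.1 (19.6 to 601, from 2 and 143 counts) in chr1:4464001-4466000, 18.6 (8.77 to 47.2) in chr1:4470001-4472000 and 18.2 (10.7 to 33.8) in chr1:4462001-4464000. At Foxa2 they were 83.7 (14.6 to 3346, from 1 and 83 counts) in chr2:147826001-147828000, 53.1 (17.9 to 260, from 3 and 158 counts) in chr2:147850001-147852000 and 29.0 (16.4 to 56.7) in chr2:147830001-147832000.

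The single window of each locus where H3K4me1 fell past 2-fold was the one fullest in H3K27ac. At Sox17, H3K4me1 in chr1:4482001-4484000 went from 5.71 CPM in ESCs to 2.63 CPM in RA cells, a ratio of 0.460 (0.371 to 0.567). At Foxa2, H3K4me1 in chr2:147870001-147872000 went from 9.98 to 2.20 CPM, a ratio of 0.221 (0.178 to 0.272). H3K4me1 peaks of RA cells left a gap there, of 1477 bp at chr1:4481973-4483449 and of 2789 bp at chr2:147869675-147872463. A single H3K27ac peak of RA cells ran across each gap. In the whole bins of the Sox17 gap, H3K27ac held 8.93 CPM and H3K4me1 3.72 CPM in ESCs, and 42.1 and 1.08 CPM in RA cells. In those of the Foxa2 gap, H3K27ac held 9.54 CPM and H3K4me1 12.7 CPM in ESCs, and 88.6 and 3.24 CPM in RA cells. These bins held little 5mC in the ESC and RA libraries, with 1.37 to 1.61% in ESCs and 0 to 2.61% in RA cells, and with 51 H3K4me1 counts in the Sox17 gap a count of 0 allows up to 5.88% (3 counts of the total, the basis of each such limit here).

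In XEN cells the same division held between the pairs of libraries. In chr1:4482001-4484000 the libraries labelled H3K4me1 held 38.4 and 32.4 CPM and those labelled H3K27ac 4.13 and 5.68 CPM. In chr2:147870001-147872000 those labelled H3K4me1 held 52.3 and 45.2 CPM and those labelled H3K27ac 2.46 and 3.13 CPM. The groups did not overlap in either window, and 2 libraries against 2 cannot give an exact permutation p below 0.333. Read by label, the mark that filled these windows in XEN cells was H3K4me1, and read by file name it was H3K27ac, as in RA cells.

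Over a whole locus, XEN libraries of either label lay above ESCs. With only bins of at least 4 counts used for every library, the ratio of XEN cells to ESCs for H3K4me1 by label was 4.86 ± 0.396 at Sox17 and 3.43 ± 0.301 at Foxa2 (SD, n = 2). For H3K27ac by label it was 5.72 ± 0.390 and 8.91 ± 0.384. By file name the ratios were 3.78 and 3.55 for H3K4me1, and 7.35 and 8.63 for H3K27ac. Against RA cells the ratios by label were 1.25 ± 0.102 and 1.22 ± 0.107 for H3K4me1 and 0.701 ± 0.0478 and 0.733 ± 0.0316 for H3K27ac. By file name they were 0.975 and 1.26 for H3K4me1, and 0.900 and 0.710 for H3K27ac. XEN libraries are labelled PE, name an additional aligner in their notes and list bins by another rule than those of ESCs and RA cells, so cell state and processing cannot be told apart.

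By window, both XEN libraries labelled H3K4me1 were at least 2-fold above ESCs in 14 of 15 windows at Sox17 and 20 of 31 at Foxa2 (14.5% of the genome), and at least 2-fold below in 0 and 4 (42.3%). Those labelled H3K27ac were above ESCs in 22 of 24 and 30 of 32 windows (38.2%) and below in 1 window each (30.8%), the centres named above. The widest ratios are given among windows where ESCs had a bin of at least 4 counts, the only bins used in XEN ratios. At Sox17 the widest for H3K4me1 by label was in chr1:4508001-4510000, at 69.0 and 54.1 in the 2 replicates. For H3K27ac by label it was in chr1:4470001-4472000, at 49.9 and 54.0. At Foxa2 they were in chr2:147838001-147840000, at 71.7 and 59.7, and in chr2:147848001-147850000, at 62.6 and 56.5. By file name, among windows limited in the same way, the widest were again in chr1:4508001-4510000 for H3K4me1 at Sox17, at 79.5 and 104. For H3K27ac at Sox17 the widest were in chr1:4528001-4530000, at 59.5 and 53.3. At Foxa2 they were in chr2:147850001-147852000 for H3K4me1, at 83.3 and 78.3, and in chr2:147854001-147856000 for H3K27ac, at 40.4 and 32.4. By file name, H3K4me1 was above ESCs in 21 of 25 and 25 of 36 windows (20.7%) and below in 0 and 1 (45.0%). H3K27ac was above in 15 of 15 and 21 of 22 windows (22.6%) and below in none (26.1%). Counts above ESCs exceeded the share of the genome at both loci under either assignment. Here too, windows nearly empty in ESCs met the minimum only through XEN counts.

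Between XEN and RA cells the assignment decided the picture. By label, H3K4me1 was at least 2-fold higher in XEN cells in 2 of 29 windows at Sox17 and 4 of 39 at Foxa2 (11.0% of the genome) and lower in 8 and 10 (35.6%), and H3K27ac was higher in 13 of 26 and 18 of 36 (34.8%) and lower in 3 and 5 (16.5%). By file name, H3K4me1 was higher in 0 of 29 and 2 of 43 windows (7.42%) and lower in 1 of each (21.7%), and H3K27ac was higher in 1 of 19 and 5 of 27 (11.8%) and lower in 0 and 2 (9.84%). By label, the centres held the widest gains of H3K4me1 and the widest losses of H3K27ac that had a XEN count. H3K4me1 by label was 13.6 and 11.4 times the RA level in chr1:4482001-4484000 and 23.2 and 20.1 times in chr2:147870001-147872000. H3K27ac by label was 0.0626 and 0.0860 times the RA level in the first and 0.0292 and 0.0371 times in the second. By file name these wide ratios were absent, with H3K4me1 at 1.46 and 2.01 times the RA level in the first and 1.09 and 1.39 times in the second. H3K27ac by file name was at 0.582 and 0.490 times in the first and 0.620 and 0.536 times in the second.

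5mC in the DNA of each mark was compared next. Over all counts of the Sox17 locus, 20.6% were methylated in the H3K4me1 library of ESCs (exact interval 18.9 to 22.4%) and 48.3% in that of RA cells (47.0 to 49.6%). For H3K27ac the shares were 19.3% (16.6 to 22.2%) and 20.1% (19.0 to 21.2%). At Foxa2, H3K4me1 went from 16.2% (15.1 to 17.3%) to 43.9% (42.9 to 44.9%). H3K27ac at Foxa2 went from 26.0% (23.4 to 28.7%) to 15.8% (15.1 to 16.6%). These totals compare different stretches, since most bins of a locus were empty or nearly so in ESCs.

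In bins with at least 30 counts in the libraries of both cell states, H3K4me1-bound DNA was more methylated in RA cells at both loci. At Sox17, 18 such bins held 13.3% 5mC in ESCs and 29.4% in RA cells, a difference of 16.1 points (Newcombe interval 13.1 to 19.1). At Foxa2, 28 bins held 10.1% and 27.1%, a difference of 17.1 points (14.7 to 19.3). The median difference of a bin was 9.21 and 7.33 points, against 17.4 points over all 204685 bins tested in the genome. With each bin weighted equally the differences were 10.7 and 12.1 points.

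By Fisher's exact test, adjusted over all tested bins of the genome after Benjamini and Hochberg, which compares libraries and not cell states, 6 of 18 bins at Sox17 and 10 of 28 at Foxa2 were higher in RA cells, where 47.8% of all tested bins were. Lower 5mC was called in 1 bin at Sox17 and 0 at Foxa2, against 1.84%. Rises of more than 20 points were seen in 3 and 7 bins (44.8% of the genome) and falls of that size in 1 and 0 (1.83%). At Foxa2, 12 bins had an unadjusted p under 0.05, and all of them were higher in RA cells. The share called higher was below that of the genome at both loci. Only bins that already carried H3K4me1 counts in ESCs could be tested.

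The bin with the widest rise was chr1:4461801-4462000 at Sox17, with 12.9% 5mC in ESCs (3.63 to 29.8%, 31 counts) and 74.1% in RA cells (61.0 to 84.7%, 58 counts), adjusted p = 3.43e-07 by Fisher's exact test. It was followed by chr1:4462201-4462400, from 30% to 64.1% (adjusted p = 0.00049, Fisher's exact test), and chr1:4487601-4487800, from 6.19 to 29.9% (adjusted p = 6.04e-05, Fisher's exact test). At Foxa2 the widest rises were in chr2:147855001-147855200, from 40.6 to 79.6% (adjusted p = 0.00247, Fisher's exact test), chr2:147879601-147879800, from 22.2 to 54.2% (adjusted p = 6.23e-05, Fisher's exact test), and chr2:147875001-147875200, from 19.4 to 47.8% (adjusted p = 0.0333, Fisher's exact test).

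The bin that fell was chr1:4469601-4469800, from 44.1% in ESCs (32.1 to 56.7%, 68 counts) to 23.8% in RA cells (16.7 to 32.2%, 126 counts), adjusted p = 0.0137 by Fisher's exact test. H3K27ac-bound DNA of this bin held 22.1% in RA cells from 131 counts and had 11 counts in ESCs. In XEN cells it held 11.5 and 20.8% in the libraries labelled H3K4me1 and 16.7 and 20.3% in those labelled H3K27ac. All of these later values lay below the ESC value of H3K4me1.

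H3K27ac-bound DNA could be compared between cell states in few bins, because the ESC library reached 30 counts in only 8 bins at Sox17 and 7 at Foxa2. All of them held under 20% 5mC in ESCs, as did 81.8% of the covered bins of the genome. At Sox17 they held 1.60% in ESCs and 0.736% in RA cells, a difference of -0.860 points (-2.73 to 0.161). At Foxa2 they held 2.34% and 4.11%, a difference of 1.77 points (-1.06 to 3.49). Fisher's exact test called 0 of 8 and 0 of 7 bins in either direction (13.8% of the genome higher and 1.06% lower), with 0 and 1 bins at an unadjusted p under 0.05. No bin changed by more than 20 points, where 11.5% of the genome rose and 0.440% fell by that much. The bins that differed most were chr1:4483401-4483600, from 5.13 to 1.07%, and chr2:147856201-147856400, from 5.26 to 24.1%, and both missed the threshold (adjusted p = 0.447 and 0.0594, Fisher's exact test).

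The stretches that gained a peak in RA cells held more 5mC than those that had one in ESCs. In bins of RA H3K4me1 peaks with at least 30 counts, H3K4me1-bound DNA held 39.5% 5mC in the 35 bins at Sox17 inside an ESC peak and 52.1% in the 42 bins outside. At Foxa2 it held 34.8% in 52 bins and 47.7% in 60 bins, and over the genome 44.9% and 57.6%. For H3K27ac it was 1.03% in 12 bins and 20.6% in 30 bins at Sox17, 0.551% in 9 bins and 9.38% in 63 bins at Foxa2, and 9.22% and 35.8% over the genome. Outside ESC peaks, 18 of the 30 H3K27ac bins at Sox17 and 47 of the 63 at Foxa2 were under 20% 5mC, where the genome had 29.5%. In H3K4me1 this was so for 8 of 42 and 11 of 60 bins (genome 6.42%). These shares are a description and were not tested.

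Gained windows differed among themselves in 5mC. In RA cells chr1:4464001-4466000 held 15.2% 5mC in H3K4me1 and 15.4% in H3K27ac, and chr1:4526001-4528000 held 17.6 and 16.7%. The Foxa2 window chr2:147830001-147832000 held 23.8 and 18.0%. In contrast, its neighbour chr2:147828001-147830000 held 71.5 and 68.5%, and chr2:147840001-147842000 held 82.6 and 87.0%. The 4 XEN libraries held 9.84 to 19.0% in chr1:4464001-4466000, 21.6 to 29.7% in chr1:4526001-4528000 and 15.2 to 26.0% in chr2:147830001-147832000. They held 70.3 to 80.7% in chr2:147828001-147830000 and 82.1 to 83.7% in chr2:147840001-147842000. These 5 windows were chosen after their values were seen.

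**Figure D3:**
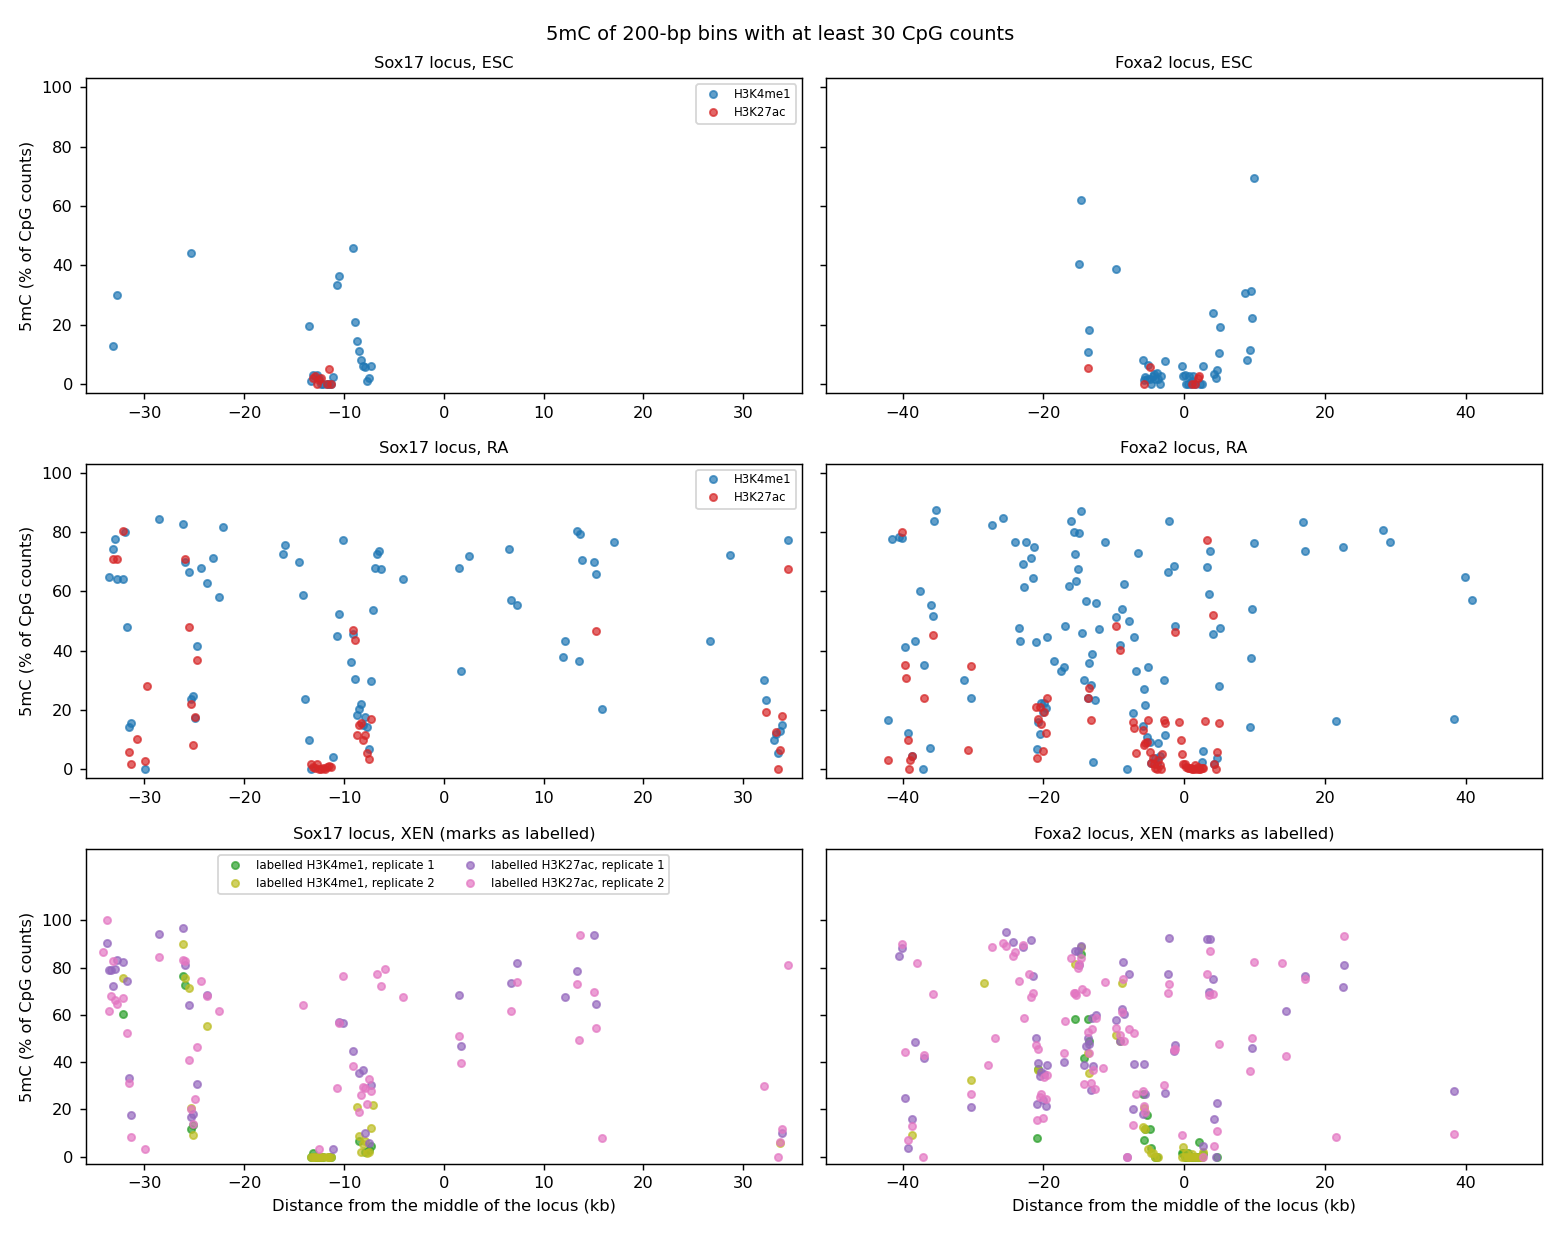
5mC in percent of CpG counts (y) of each 200-bp bin with at least 30 counts against the distance from the middle of the locus in kb (x), for both loci in ESCs, RA cells and XEN cells. Most covered bins of ESCs lie near the windows fullest in H3K27ac (12 kb left of the middle at Sox17, at the middle of Foxa2) and hold little 5mC, while those of RA and XEN cells spread over the loci and range from 0% to over 60%, with a stretch of near-zero 5mC kept there.

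Both loci kept an unmethylated centre. In H3K27ac of RA cells the longest run of adjacent bins with at least 30 counts and under 20% 5mC was chr1:4481601-4483800 at Sox17 (2200 bp, 0.749% of 2003 counts). At Foxa2 it was chr2:147869201-147873000 (3800 bp, 1.45% of 3785 counts). The XEN libraries labelled H3K4me1 had their longest runs in the same stretches in both replicates, at chr1:4481601-4483000 (0.224 and 0% of 446 and 427 counts) and chr2:147869601-147871600 (0.522 and 0.906% of 767 and 773 counts). In H3K27ac of ESCs the runs were chr1:4481801-4482800 (1000 bp) and chr2:147871801-147872200 (400 bp), which the depth of that library limits.

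The longest runs of the other libraries lay elsewhere. In H3K4me1 of ESCs they were chr1:4486201-4487800 (1600 bp, 6.12%) and chr2:147864001-147866800 (2800 bp, 2.39%). In H3K4me1 of RA cells they were chr1:4528001-4529000 (1000 bp, 11.6%) and chr2:147865801-147866600 (800 bp, 4.51%). In the XEN libraries labelled H3K27ac they were chr1:4469601-4470000 and chr1:4528401-4529000 in replicates 1 and 2 at Sox17, and chr2:147874201-147874600 and chr2:147830601-147830800 at Foxa2, each of 600 bp or less.

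Over all covered bins, the H3K4me1 library of RA cells held 17 bins under 20% and 34 over 60% among 77 at Sox17, and 28 and 37 among 112 at Foxa2, where 16.9% of the genome's covered bins were under 20%. The H3K27ac library of RA cells held 30 under 20% and 5 over 60% among 42, and 56 and 2 among 72 (61.6% of the genome under 20%). In H3K4me1 of ESCs, 20 of 26 bins at Sox17 and 37 of 45 at Foxa2 were under 20% (35.1% of the genome), and 0 and 2 were over 60%. In XEN cells the libraries labelled H3K4me1 had 15 of 18 and 19 of 27 bins under 20% at Sox17, and 24 of 31 and 22 of 33 at Foxa2 (66.6 and 61.6% of the genome). Those labelled H3K27ac had 7 of 36 and 9 of 55, and 7 of 66 and 14 of 88 (11.3% of the genome in both replicates). Bins over 60% numbered 3 and 4 at Sox17 and 1 and 4 at Foxa2 in those labelled H3K4me1, against 20 and 26, and 25 and 35, in those labelled H3K27ac.

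The last comparison set the marks side by side in the same bins of 1 cell state, which is the comparison the study was built on. In RA cells, 30 bins at Sox17 had at least 30 counts in both marks and held 32.3% 5mC in H3K4me1 and 19.7% in H3K27ac, a difference of 12.6 points (interval 10.0 to 15.1). At Foxa2, 46 bins held 26.9% and 12.2%, a difference of 14.7 points (12.9 to 16.5). The pooled values weight each bin by its counts in that library. With each bin weighted equally the differences were 3.97 and 5.74 points, and the median bin differed by 4.99 and 3.18 points, against 3.07 points over 95406 bins of the genome. H3K4me1 was the higher in 20 of 30 bins at Sox17 and 35 of 46 at Foxa2.

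Few single bins differed beyond counting error. Fisher's exact test called 0 of 30 bins at Sox17 and 2 of 46 at Foxa2 with higher 5mC in H3K4me1 (0.801% of the genome) and 0 and 0 with lower 5mC (0.0126%), with 5 and 9 bins at an unadjusted p under 0.05. Those called were chr2:147862801-147863000, with 44.8% in H3K4me1 (32.6 to 57.4%, 67 counts) and 13.9% in H3K27ac (6.87 to 24.1%, 72 counts), adjusted p = 0.0185 by Fisher's exact test, and chr2:147864201-147864400, with 27.3% (19.2 to 36.6%, 110 counts) and 8.28% (4.60 to 13.5%, 169 counts), adjusted p = 0.0127 by Fisher's exact test. A difference of more than 20 points with H3K4me1 the higher was seen in 0 bins at Sox17 and 4 at Foxa2 (4.64% of the genome), and with H3K4me1 the lower in 0 and 0 (0.606%). The bin that differed most at Sox17 was chr1:4510201-4510400, with 66.0% and 46.7%, and missed the test (adjusted p = 0.599, Fisher's exact test).

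**Figure D4:**
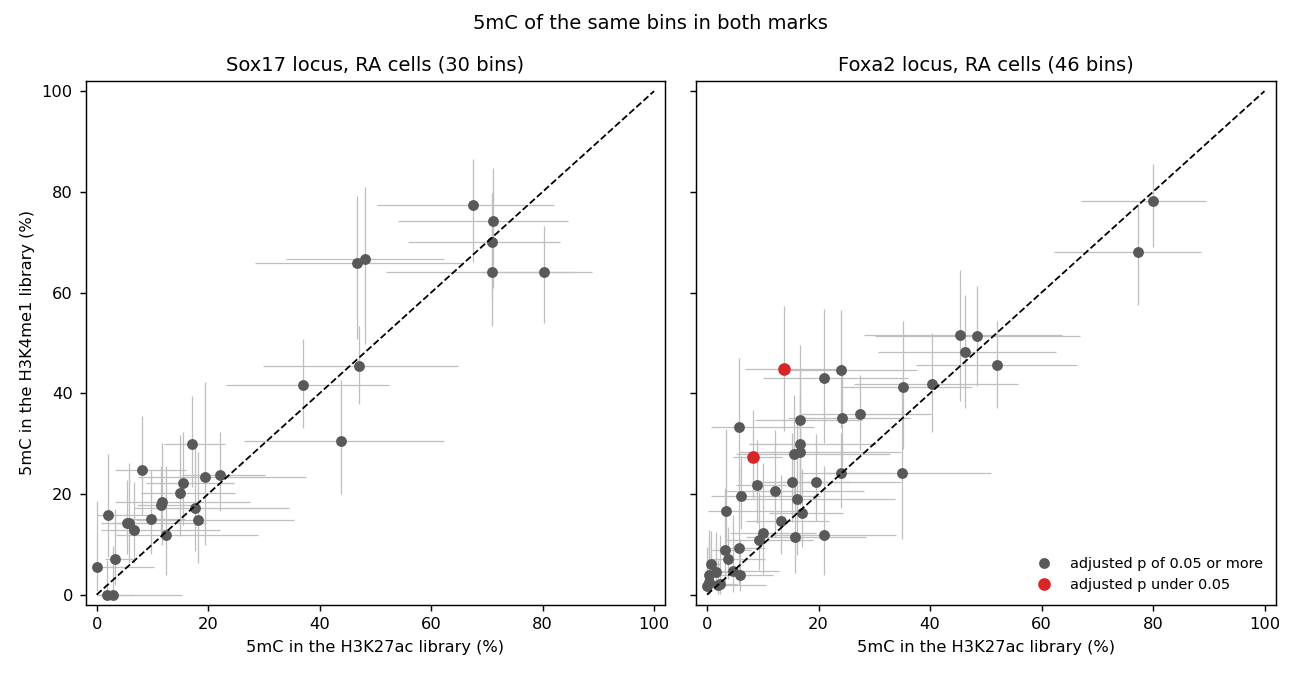
5mC in percent in the H3K4me1 library (y) against 5mC in the H3K27ac library (x) of RA cells for the 30 Sox17 and 46 Foxa2 bins with at least 30 counts in both, with exact 95% intervals as grey bars and a dashed line at equal values. Most bins lie near the line, and the 2 red bins at Foxa2, at 44.8 against 13.9% and 27.3 against 8.28%, passed Fisher's exact test.

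Both called bins were less methylated in ESCs. The bin chr2:147864201-147864400 held 1.21% in H3K4me1 of ESCs from 165 counts and 0% in H3K27ac from 30 counts. In XEN cells it held 7.04 and 20.7% in the libraries labelled H3K4me1 and 39.1 and 21.6% in those labelled H3K27ac. The bin chr2:147862801-147863000 had 27 counts in H3K4me1 of ESCs, 7.41% of them methylated, and in XEN cells 39.4 and 52.3% in the libraries labelled H3K27ac from 33 and 44 counts.

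In ESCs no difference between the marks was detectable at this depth. The 7 covered bins at Sox17 held 1.38% in H3K4me1 and 1.47% in H3K27ac (difference -0.0913 points, -2.19 to 2.18), and the 5 at Foxa2 held 2.18% and 2.31% (-0.129 points, -3.75 to 2.15). Fisher's exact test called 0 of 5 and 0 of 2 bins that lay in peaks of both marks (0.0692% of the genome higher in H3K4me1 and 0.00973% lower), with 0 at an unadjusted p under 0.05. None differed by more than 20 points (1.36% of the genome higher in H3K4me1 and 1.03% lower). Among these bins in peaks of both marks, those that differed most were chr1:4483401-4483600, with 0 of 45 H3K4me1 counts methylated, which allows up to 6.67%, against 5.13%, and chr2:147871001-147871200, with 1.02% against 0 of 36 counts (up to 8.33%).

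In XEN cells the direction depended on the assignment. Over 9 bins at Sox17 with at least 30 counts in all 4 libraries, those labelled H3K4me1 held 21.1 and 23.9% and those labelled H3K27ac 42.6 and 38.6%, a difference of -18.1 points by label and 18.1 points by file name. Over 9 bins at Foxa2 the libraries labelled H3K4me1 held 30.3 and 30.8% and those labelled H3K27ac 46.5 and 45.2%, a difference of -15.3 points by label and 15.3 points by file name. With each bin weighted equally, the differences by label were -11.2 points at Sox17 and -5.41 points at Foxa2. The median bin differed by -7.79 and -3.37 points, against -3.41 points over 14551 bins of the genome. The groups did not overlap at either locus, and the exact permutation test (two-sided, 2 against 2) gave 0.333, the smallest p it can give. All 9 bins at Sox17 and 8 of 9 at Foxa2 were lower in the libraries labelled H3K4me1.

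By edgeR's quasi-likelihood test, adjusted over 14551 bins of the genome, 3 of 9 bins at Sox17 and 0 of 9 at Foxa2 were lower in the libraries labelled H3K4me1 (1.27% of the genome) and 0 and 0 were higher (0.0137%), with 4 and 2 bins at an unadjusted p under 0.05. A difference of more than 20 points with the libraries labelled H3K27ac the higher was seen in 1 bin at Sox17 and 0 at Foxa2 (2.74% of the genome), and with those labelled H3K4me1 the higher in 0 and 0 (0.0962%). With replicate 2 left out, Fisher's exact test of the remaining pair of libraries called 1 bin lower at each locus. Fisher's exact test on summed counts called 3 and 1 bins lower. Of the bins called at Sox17, the one that differed most was chr1:4487601-4487800, with 4.40 and 12.1% in the libraries labelled H3K4me1 and 30.3 and 27.9% in those labelled H3K27ac (adjusted p = 0.0302, edgeR). It was followed by chr1:4487401-4487600, with 2.63 and 2.02% against 5.77 and 32.7% (adjusted p = 0.0193, edgeR), and chr1:4487001-4487200, with 1.85 and 6.52% against 10.0 and 29.2% (adjusted p = 0.0263, edgeR). All 3 lie in the window that was fullest in H3K4me1 in ESCs and inside its longest unmethylated run there. At Foxa2 the bin that differed most was chr2:147864201-147864400, named above, which missed the test (adjusted p = 0.193, edgeR).

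XEN cells were then set against the other cell states, with pooled values, the number of bins in each direction and the median difference of a bin. With 1 library in ESCs and in RA cells, these differences had no test. At Sox17 the XEN libraries labelled H3K4me1 held 3.35% 5mC where ESCs held 6.98% (13 bins, 2 higher and 7 lower in XEN cells, median -1.12 points). The pooled difference of -3.64 points was -1.97 without replicate 1, -4.84 without replicate 2 and 1.40, in the opposite direction, with a minimum of 20 counts (23 bins). At Foxa2 they held 8.27% against 4.92% in ESCs, with 10 of 21 bins higher and 7 lower, a median of 0 and 3 bins over 20 points. By file name, H3K4me1 held 38.7% against 16.0% in ESCs at Sox17 (10 bins, 8 higher, median 18.8 points) and 46.1% against 12.7% at Foxa2 (13 bins, 12 higher, median 24.6 points).

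For H3K27ac against ESCs, no Sox17 bin could be compared by label, and 2 Foxa2 bins held 48.3% against 2.94%. By file name it held 0.112% against 1.80% at Sox17 (7 bins, 5 lower and 0 higher) and 13.2% against 1.60% at Foxa2 (5 bins). The median of these 5 bins differed by 0.5 points, and 1 of them, chr2:147856201-147856400, differed by 45.7 points.

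Against RA cells, the libraries labelled H3K4me1 held 20.7% at Sox17 where H3K4me1 of RA cells held 35.0% (10 bins, 3 higher and 6 lower, median -6.17 points). At Foxa2 they held 22.9% against 26.9% (12 bins, 6 higher and 6 lower, median -1.10 points), and the pooled difference went from -3.97 to -1.90 points without replicate 2. The libraries labelled H3K27ac held 40.9% against 22.7% in H3K27ac of RA cells at Sox17 (18 bins, 14 higher, median 7.91 points) and 38.5% against 17.9% at Foxa2 (31 bins, 28 higher, median 10.9 points). By file name, H3K4me1 held 52.8% in XEN cells and 47.0% in RA cells at Sox17 (32 bins, 19 higher and 13 lower, median 4.58 points), and 47.2 and 40.1% at Foxa2 (56 bins, 43 higher and 12 lower, median 6.03 points). H3K27ac by file name held 8.55 and 8.14% at Sox17, where 3 of 17 bins were higher and 12 lower with a median of -1.04 points, against the pooled direction. At Foxa2 it held 6.46 and 3.15%, where 11 of 22 bins were higher and 9 lower with a median of 0.133 points and 1 bin differed by 26.9 points.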

How the data were processed

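ChIP-BS-seq of H3K4me1 and H3K27ac was analysed for ESCs, RA cells and XEN cells. The authors aligned bisulfite reads to mm9 with Bismark and Bowtie, treating them as single-ended (for XEN, the titles carry PE and the submitters' processing notes also name Bowtie2), and deposited, for each 200-bp bin, separate CpG counts with and without methylation. Reads with mixed CpG states had been removed. The authors' HOMER peak lists for ESCs and RA cells give a score and coordinates per peak, and the score was used only to rank peaks. Bisulfite does not separate 5mC from 5hmC. The column order of methylated and unmethylated counts is reversed in the XEN files and was set accordingly.

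Here, bins were summed into 2-kb windows, and CPM divides by all counts of the library (for XEN ratios, bins of at least 4 counts in every library). Windows needed 30 counts summed over a pair of libraries, and bins 30 in each library compared. Tests were Fisher's exact test on bins in a peak of either cell state (between cell states) or of both marks (between marks), edgeR's quasi-likelihood test for XEN libraries with Benjamini-Hochberg adjustment over the genome at 0.05, and exact permutation. Ratios and shares have exact 95% intervals. XEN replicates differed beyond sampling noise (mean chi-square per window 4.04 and 3.56), and nothing says that they came from separate cultures, so p-values may measure technical spread. The statistics were first tested on simulated data.

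Members and lists were chosen with earlier results of these data known. The rule for named items took, per comparison and locus, up to 3 bins in each direction past the test or the single bin that differed most, the 3 fullest windows of a library, up to 3 called windows with the widest ratio, the longest unmethylated run, and the best peak of each list. For the XEN window ratios, 1 window per locus and label is given.

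Alternatives were other count minimums, folds, scalings and weightings, marks by file name, left-out replicates and the replicate block. Input and H3K36me libraries were not analysed here, and single-cell expression was not used, since no table here pairs its transcript identifiers with symbols, so cell type markers could not be checked. The software was edgeR 4.0.16 in R 4.3.3, and scipy 1.17.1, numpy 2.4.6 and pandas 2.3.3 in Python 3.11.15.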

Additional observations from a re-analysis of the deposited data

Results flagged for a closer look

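The sign of the difference between the marks went opposite ways in RA and XEN cells when the XEN libraries were read by their labels. Over 8 Sox17 bins with at least 30 counts in the RA and XEN libraries, 5mC in H3K4me1 minus H3K27ac was 13.1 points in RA cells and -21.4 to -16.2 points over the XEN libraries. Over 7 such bins at Foxa2 it was 12 points in RA cells and -19.8 to -15 points in XEN cells. By file name the XEN values have the opposite sign, that of RA cells. All of these are pooled values, which weight each bin by its counts in that library. Over the larger sets of bins above, the median bin differed less. It differed by 4.99 and 3.18 points in RA cells and by -7.79 and -3.37 points in XEN cells by label. The difference between RA and XEN cells was not tested.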

How the results depend on the processing

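Of the values recomputed under each alternative, 12 reversed, 43 moved beyond their interval, the spread of replicates or 1.5 times a count, and 143 did not. The difference between marks in XEN cells, whose test cannot pass its threshold, was judged by direction alone. Some of the 143 give no separate check. These include counts of called bins where no bin reached the minimum, and bins in peaks, which were the main bins. The differences with the replicate block are also among them. The causes were not tested unless the setting itself gives one, such as fewer bins.

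With all bins in place of those with 30 counts, the rise of 5mC in H3K4me1 from ESCs to RA cells was 27.7 points at Sox17 and 27.7 at Foxa2, and the change in H3K27ac reversed to 0.851 and -10.1 points. With a minimum of 20 counts, Sox17 gave 0.437 points for the H3K27ac change, 0.588 for the marks in ESCs, 1.40 for XEN minus ESC in H3K4me1 by label (all reversed) and 21.8 for XEN minus RA in H3K27ac. Foxa2 gave 19.2 points for the marks in RA cells and 24.1 for XEN minus RA in H3K27ac. For H3K4me1 it gave 4.13 for XEN minus ESC and -4.96 for XEN minus RA. Of 10 Foxa2 bins, 1 was then called higher in H3K27ac of RA cells than of ESCs. With a minimum of 60, the H3K4me1 rise at Sox17 was 10.3 points, and the marks in RA cells differed by 9.15 and 11.4 points. Of 11 Foxa2 bins, 5 were then called higher in H3K4me1 of RA cells than of ESCs, against 10 of 28 in the main setting. Shares of the genome were taken in the main settings only. Where no bin reached a minimum, no difference is given, and the count of called bins was 0 by default.

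With bins weighted equally, the H3K4me1 rise was 10.7 and 12.1 points, the marks in RA cells differed by 3.97 and 5.74 points, in XEN cells by label by -11.2 and -5.41 points, and in ESCs at Foxa2 by 0.75 points (reversed).

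With XEN marks by file name, the marks in XEN cells differed by 18.1 and 15.3 points (reversed). XEN minus ESC in H3K4me1 was 22.7 (reversed) and 33.4 points, and in H3K27ac at Foxa2 11.6. XEN minus RA was 5.79 and 7.15 points in H3K4me1 (both reversed) and 0.415 and 3.31 in H3K27ac. Occupancy ratios at Sox17 were 3.78 and 0.975 for H3K4me1 over ESCs and RA cells (the latter reversed) and 7.35 and 0.900 for H3K27ac.

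Counting only bins of at least 4 counts, RA over ESC ratios were 3.88 and 8.16 at Sox17 and 2.81 and 12.2 at Foxa2. Scaled by the median of ratios, XEN over ESC was 3.27 and 5.03 at Sox17 and 2.31 and 7.78 at Foxa2, and XEN over RA in H3K27ac 0.485 and 0.506. At a fold of 3, 0 of 29 Sox17 windows were lower in H3K4me1 of RA cells, and at 1.5, 3 of 42 Foxa2 windows were.

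Leaving out each replicate gave ranges in H3K4me1 by label of -4.84 to -1.97 points for XEN minus ESC and -15.8 to -11.7 for XEN minus RA at Sox17, and at Foxa2 3.06 to 3.70 over ESCs and -4.60 to -1.90 over RA cells. Bins called in XEN cells then numbered 1 to 2 at Sox17 and 0 to 1 at Foxa2, and Fisher's exact test on summed counts called 1 at Foxa2.

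How same-numbered XEN libraries relate is not stated. The correlation of their deviations from the mean of their mark was -0.00849 over 156302 windows. With the replicate block the calls were 3 and 0, so no call changed. The differences between marks, -18.1 and -15.3 points, are the same with the block by their definition. ESC H3K27ac reached 30 counts in 8 and 7 bins, which limits every comparison that uses it, and 1 library per mark in ESCs and RA cells leaves no spread.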
